A study of Mus musculus with 9 samples.

Results

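The set followed here comprised 10 genes for secreted glycoproteins of the extracellular matrix (ECM): fibronectin (Fn1), vitronectin (Vtn), the tenascins Tnc and Tnxb, Sparc, the thrombospondins Thbs1, Thbs2 and Thbs4, and the fasciclin-domain proteins Postn (periostin) and Tgfbi. The genes were chosen by symbol, and all 10 were matched by Entrez Gene identifier among the 19369 genes listed in at least 1 sample. RNA-Seq had been performed on wild-type C57BL/6 mouse embryos at 3 stages, with 3 biological replicates a stage: periocular neural crest (pNC) at E10.5, the baseline, and cornea at E14.5 and E16.5. Each sample was pooled from many eyes or corneas, and at E10.5 the tissue was treated with dispase and freed of ectoderm, lens vesicle and optic cup, whereas the corneas kept their epithelium, stroma and endothelium. No transgene or deletion distinguished the groups, nor any treatment other than the dispase step. That step, described for E10.5 only, cannot be told apart from stage. The p-values below measure the spread between these pooled samples, since the labels do not say whether replicates came from separate litters.

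Fibronectin and vitronectin are adhesive glycoproteins to which cells attach through integrins, and fibronectin fibrils form an early scaffold on which neural crest cells migrate and other matrix proteins are laid down. Tenascins, thrombospondins, SPARC and periostin are matricellular proteins, which modulate how cells adhere to the matrix, how collagen fibrils are assembled and how growth factors act, more than they bear load. In the cornea, TGFBI is known for the human stromal dystrophies caused by its mutations, and thrombospondins for their anti-angiogenic action.

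Fn1 and Postn were the members whose transcripts differ in coding exons among the RefSeq transcripts used for quantification. Whole exons that some of their transcripts lack are therefore shown first. Fn1 lies on the reverse strand of chromosome 1 (chr1:71585473-71653280, GRCm38), and Postn on the forward strand of chromosome 3 (chr3:54359267-54391041). Fn1 was represented by 7 transcripts with coding lengths of 6528 to 7431 bases. The extra domain A (EDA) exon, present in 4 of them, is 270 bases long (chr1:71603660-71603929), and the extra domain B (EDB) exon, present in 1, is 273 bases long (chr1:71613763-71614035). Postn was represented by 3 transcripts, of which the shortest, with a coding length of 2349 bases, lacks both of the exons printed here. The transcript of 2430 coding bases carries the 81-base exon (chr3:54380412-54380492), and that of 2433 coding bases the 84-base exon (chr3:54385671-54385754). Each coding exon is written 5′ to 3′ on the strand of its gene, from the GENCODE M21 transcripts of the same build, in lower case because the whole exon is the alternative part.
Fn1 EDA exon: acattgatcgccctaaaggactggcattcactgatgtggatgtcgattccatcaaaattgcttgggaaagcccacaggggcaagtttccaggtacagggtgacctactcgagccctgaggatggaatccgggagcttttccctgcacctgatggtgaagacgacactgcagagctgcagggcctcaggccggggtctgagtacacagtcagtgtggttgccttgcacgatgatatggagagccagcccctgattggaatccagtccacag
Fn1 EDB exon: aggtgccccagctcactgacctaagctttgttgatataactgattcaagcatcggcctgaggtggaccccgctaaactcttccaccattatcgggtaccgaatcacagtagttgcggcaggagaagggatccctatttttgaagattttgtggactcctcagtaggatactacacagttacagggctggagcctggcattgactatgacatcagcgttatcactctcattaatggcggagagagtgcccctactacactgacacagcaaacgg
Postn 81-base exon: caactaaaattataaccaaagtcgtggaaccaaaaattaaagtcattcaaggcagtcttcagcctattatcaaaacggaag
Postn 84-base exon: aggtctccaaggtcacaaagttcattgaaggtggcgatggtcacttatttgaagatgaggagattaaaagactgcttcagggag

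Depth was nearly even, with totals of 8745161 to 9069023 expected counts per sample. Replicates of a stage differed by more than counting noise (chi-square per degree of freedom of 2.93 to 26.3). E14.5 replicate 1 stood apart: on the first principal component, which held 77.6% of the variance, it lay at 36.1 against 3.24 and 8.33 for the other E14.5 samples, with E16.5 at 61.0 to 67.5 and E10.5 at -80.3 to -78.6. The summed FPKM of 8 epithelial markers was 2134 in that sample against 659 and 782, and that of 5 stromal markers was 5628 against 2164 and 3167. Of the 10 genes, E14.5 replicate 1 had the highest E14.5 value for Fn1, Thbs2, Thbs4, Tgfbi and Sparc, and the lowest for Tnc, Thbs1 and Postn. Its part in the results was not tested beyond the values given without it.

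The tissues carried their markers, and these changed along with the matrix genes. Summed FPKM of the 8 epithelial markers (among them Krt5, Krt12 and Krt14) ranged from 33.2 to 44.6 in pNC, from 659 to 2134 in the E14.5 corneas and from 5270 to 7623 in the E16.5 corneas, and that of the 5 stromal markers (among them Kera, Lum and Dcn) was 104 to 160, 2164 to 5628 and 8742 to 10621. All 8 and all 5 were called higher at both corneal stages than at E10.5. The 4 corneal endothelial markers summed to 11.6 to 20.1, 265 to 323 and 200 to 236, with 3 of 4 called higher at both stages. The summed neural crest markers ranged from 247 to 309, from 153 to 205 and from 129 to 164 at the 3 stages, with 5 of 6 called lower at each corneal stage, and the vascular markers from 95.8 to 149, from 42.2 to 76.9 and from 22.5 to 34.1, with 4 of 5 called lower. The 5 red blood cell markers, embryonic globin genes among them, went from sums of 3902 to 6140 in pNC to 157 to 655 in the E14.5 corneas and 9.40 to 15.7 in the E16.5 corneas. Skeletal muscle markers summed to 11.2 to 13.5 at E10.5, and Myod1, Myf5 and Myog were at 0 in every corneal sample. Other lists had sums that dipped or peaked at E14.5. The 4 cartilage markers summed to 151 to 219, 44.3 to 66.5 and 115 to 159 at the 3 stages. The 4 glial markers summed to 43.8 to 55.0, 16.4 to 25.6 and 28.5 to 35.4. Both sums were lowest at E14.5, as Tgfbi was. The 5 granulocyte and mast cell markers summed to 1.81 to 2.78, 129 to 193 and 80.3 to 102, highest at E14.5 as Postn was. Genes within the glial and the granulocyte and mast cell lists did not move together. Mean FPKM of Fabp7 fell at each step (33.9, 3.33 and 1.95) and that of Erbb3 rose (5.70, 11.1 and 23.0). S100a8 (0.203, 97.9 and 10.8), Mpo and Elane were highest at E14.5, whereas Tpsb2 (0, 12.2 and 33.4) and Cpa3 (0.257, 23.8 and 47.45) rose at each step. The 3 tendon markers summed to 6.91 to 11.3, 30.4 to 39.6 and 36.0 to 48.7, but did not move together. Up to E14.5, 2 were called higher and 1 lower, and from E10.5 to E16.5, 1 higher and 1 lower. Mean FPKM of Tnmd rose at each step (0.113, 9.31 and 32.9) and that of Mkx fell (2.3, 0.563 and 0.367). Scx, highest at E14.5, was at 7.29 in pNC and 7.51 at E16.5. The tendon sums at E14.5 and E16.5 overlapped. Pericyte markers ran from 15.6 to 43.2, megakaryocyte and platelet markers from 18.5 to 32.7, macrophage markers from 31.1 to 64.8, pigment epithelium and retina markers from 26.9 to 102 and lens markers from 0.980 to 4.21 over all samples. In such bulk samples, fewer cells of a type and less RNA per cell cannot be told apart, and the part of these shifts in the results below was not tested.

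Summed over all 10 genes, the members held a growing part of the transcriptome. They took 0.182%, 0.155% and 0.113% of all counts in the 3 pNC samples, 0.411%, 0.275% and 0.343% at E14.5, and 0.769%, 0.886% and 0.861% at E16.5. The 3 stages did not overlap in this share. Most of it was Sparc and Fn1. At E16.5, Sparc took 0.378%, 0.449% and 0.448% of all counts and Fn1 0.249%, 0.268% and 0.250%. The sum does not describe each member, since Tnc and Vtn were lower at E16.5 than in pNC. Sparc and Fn1 were the most abundant members at every stage, by FPKM, which scales fragments to transcript length and library depth. Below them the order changed: the next in rank was Tgfbi in pNC, Postn in the E14.5 corneas and Thbs2 in the E16.5 corneas. At E10.5 the ranges of Fn1 and Tgfbi overlapped, as did those of Thbs1 and Postn and of Vtn and Tnc. At E14.5 the neighbors that overlapped were Thbs2 and Thbs1, Thbs4 and Tgfbi, Tgfbi and Tnc, and Tnxb and Vtn, and at E16.5 no neighbors in the order overlapped.

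**Figure D1:**
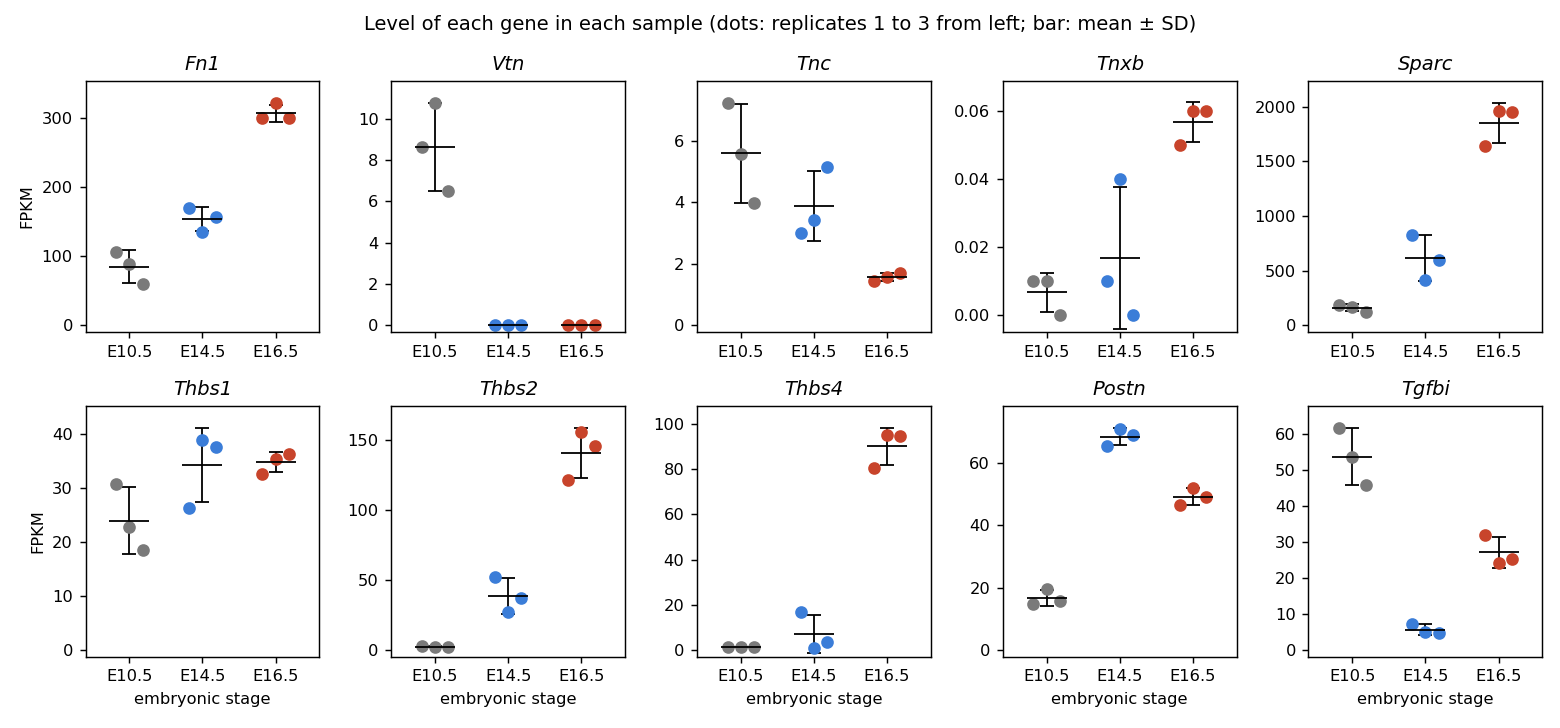
FPKM (y axis, linear, a scale of its own for each gene) of the 10 genes in each of the 9 samples by embryonic stage (x axis); dots are replicates 1 to 3 from left to right and black bars the mean ± SD of 3 samples. Fn1, Thbs2 and Sparc climb at each stage, Vtn is listed at E10.5 only, Postn is highest at E14.5 and Tgfbi lowest at E14.5.

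Calls between stages were made over 14771 genes with edgeR's quasi-likelihood test. A call required a log2 fold change of 1 or more in either direction together with a Benjamini-Hochberg adjusted p below 0.05. Of the 10 members, 9 could be tested, since Tnxb did not pass the filter on low counts. From E10.5 to E14.5, 4 members were called higher (Sparc, Postn, Thbs2 and Thbs4) and 2 lower (Tgfbi and Vtn), where 13.6% of all genes tested were called higher and 7.97% lower. From E10.5 to E16.5, 5 were called higher (Fn1, Sparc, Postn, Thbs2 and Thbs4) and 2 lower (Tnc and Vtn), against 19.4% and 15.4% of all genes. From E14.5 to E16.5, 5 were called higher (Fn1, Sparc, Tgfbi, Thbs2 and Thbs4) and 1 lower (Tnc), against 6.26% and 5.47% of all genes. These 5 were also the genes for which E14.5 replicate 1 had the highest E14.5 value. Without that sample, the 6 calls between E14.5 and E16.5 were still made, at log2 fold changes of 1.20 for Fn1, 2.02 for Sparc, 2.62 for Tgfbi, 2.29 for Thbs2, 5.48 for Thbs4 and -1.30 for Tnc. The median log2 fold change of the members tested, Vtn left out, was 1.38, 1.85 and 1.45 in the 3 comparisons, beside 0.01, 0.00 and -0.02 over all genes. The members, like the partner genes below, were chosen with earlier results of these data known. The values over all genes are therefore given as a description, and an excess over them is not a test of the set.

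The scaling of the libraries touched the E16.5 comparisons. With library totals in place of TMM factors, the median log2 fold change of all genes moved by -0.15 against E10.5 and by -0.16 against E14.5. The calls between E14.5 and E16.5 then shifted from 924 higher and 808 lower to 731 higher and 1099 lower over all genes. No member turned its direction under this scaling.

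**Figure D2:**
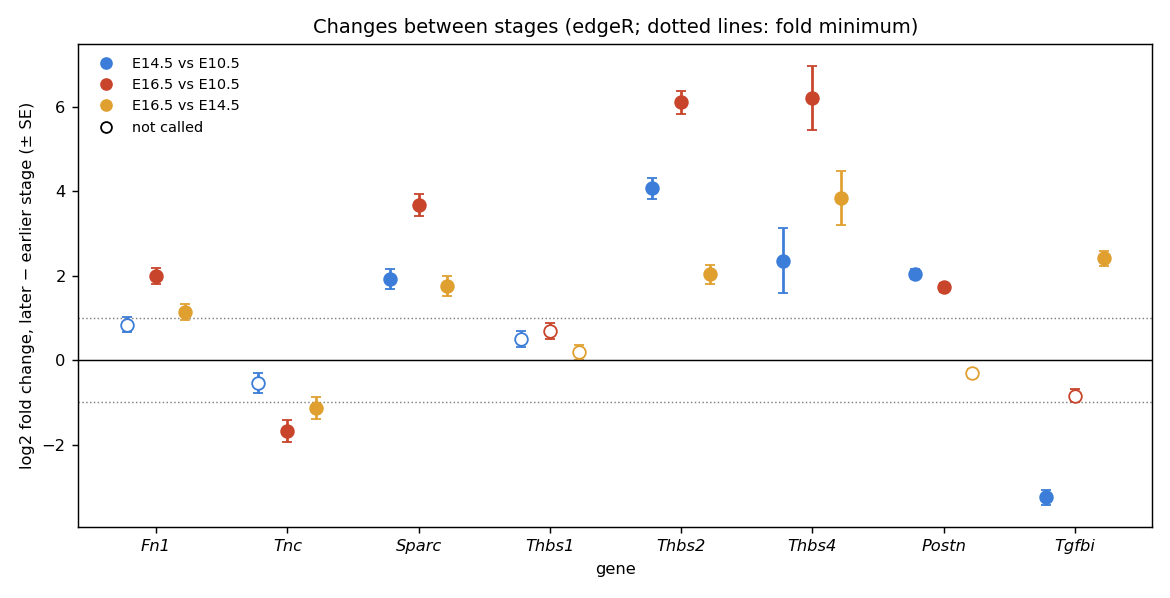
Log2 fold change of the later over the earlier stage (y axis, ± SE) for the 8 members with counts at every stage that could be tested (x axis), in 3 comparisons set apart by color; filled symbols passed both thresholds, open symbols did not, and dotted lines mark the fold minimum of 1. Thbs2 and Thbs4 have the largest rises from E10.5 to E16.5 (6.10 and 6.20), and Tgfbi, which fell by 3.25 up to E14.5, then rose by 2.41.

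Among the adhesive glycoproteins, Fn1 rose and Vtn was lost. Fn1, the transcript of fibronectin, had FPKM of 106.15, 88.82 and 59.55 in pNC, 169.51, 134.42 and 156.54 at E14.5, and 299.54, 320.71 and 298.84 at E16.5. Every E16.5 sample was above every E14.5 sample, and every E14.5 sample above every pNC sample. The log2 fold change from E10.5 to E16.5 was 1.98 (SE 0.19, edgeR adjusted p = 4.96e-06). From E10.5 to E14.5 it was 0.84 (SE 0.18, adjusted p = 0.00282), short of the fold minimum, and without E10.5 replicate 1 it was 1.04 and passed. The change from E14.5 to E16.5 was 1.14 (SE 0.19, adjusted p = 0.00155), which dropped under the minimum with library totals (0.97), with limma on log2(FPKM + 1) (0.998) and by the NOISeq criterion (0.997).

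Vtn encodes vitronectin, which binds integrins with the αv chain and the inhibitor of plasminogen activators PAI-1, and lies on chromosome 11 (chr11:78499120-78502325). It was measured in pNC only, at FPKM of 8.62, 10.74 and 6.52, from 136, 171 and 101 counts. It was not listed in any of the 6 corneal samples. Set against a floor of 3 counts per library (about 0.194 FPKM), Vtn was at least 44.3-fold lower at E14.5 and at least 39.7-fold lower at E16.5 than in pNC (adjusted p = 2.29e-05 and 1.04e-05). The floor covers counting error only, and the bound sets it against the mean of the pNC samples, leaving out their spread.

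The tenascins were low at all stages. Tnc (chr4:63959785-64047015), whose product loosens cell adhesion to fibronectin, had FPKM of 7.22, 5.57 and 3.98 in pNC, 3.02, 3.43 and 5.16 at E14.5 and 1.45, 1.58 and 1.69 at E16.5. The pNC and E14.5 samples overlapped, and all E16.5 samples were below both. The log2 fold change between the overlapping stages was -0.54 (SE 0.24, adjusted p = 0.0730). Tnc fell by 1.68 on the log2 scale from E10.5 to E16.5 (SE 0.25, adjusted p = 1.33e-04), and by 1.14 from E14.5 to E16.5 (SE 0.26, adjusted p = 0.00658). This last call was lost without E14.5 replicate 3 (a log2 fold change of -0.85), with limma on log2(FPKM + 1) (-0.90) and by the NOISeq criterion, where the log2 ratio was -1.30. Relative to Fn1, the FPKM of Tnc dropped at each stage, from 0.0659 ± 0.0028 to 0.0254 ± 0.0076 and then 0.00514 ± 0.00045 (SD, n = 3). Tnxb (chr17:34660453-34719815), which encodes the collagen-associated tenascin-X, was at the edge of detection, with 1, 1 and 0 counts in pNC, 1, 3 and 0 at E14.5 and 4, 5 and 5 at E16.5. With no filter on low counts, its adjusted p was 0.0257 for E16.5 against E10.5, at levels of at most 0.06 FPKM.

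Sparc was the most abundant member. It encodes the collagen-binding glycoprotein also called osteonectin (chr11:55394159-55420080). FPKM values were 189.34, 166.39 and 127.33 in pNC, 827.85, 412.00 and 601.24 at E14.5 and 1643.30, 1956.64 and 1951.16 at E16.5, with no overlap between stages. The log2 fold change was 1.92 (SE 0.24, adjusted p = 6.94e-05) up to E14.5 and 1.75 (SE 0.23, adjusted p = 7.08e-04) after it, which made a 12.7-fold rise from E10.5 to E16.5 (log2 fold change 3.67, SE 0.25, adjusted p = 5.65e-07). The log2 change after E14.5 minus that before it did not pass its test (-0.16, SE 0.39, adjusted p = 0.826). The ratio of Sparc to Fn1 in FPKM went from 1.93 ± 0.18 to 3.93 ± 0.91 and 6.04 ± 0.52 (SD, n = 3).

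The thrombospondins diverged from each other. Thbs1, whose product activates latent TGF-β and inhibits vessel growth through CD36 (chr2:118111876-118127133), moved least of the members tested. It had FPKM of 30.71, 22.85 and 18.47 in pNC, 26.42, 38.84 and 37.68 at E14.5 and 32.70, 35.39 and 36.42 at E16.5. The E14.5 values overlapped those of both other stages. Its log2 fold changes against E10.5 were 0.50 (SE 0.19, adjusted p = 0.0397) at E14.5 and 0.69 (SE 0.19, adjusted p = 0.00689) at E16.5, both under the fold minimum, and 0.18 (SE 0.19, adjusted p = 0.477) between E14.5 and E16.5.

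Thbs2 encodes the close relative of thrombospondin-1 that also restrains vessel growth but lacks the sequence that activates latent TGF-β (chr17:14665500-14694262). Its FPKM was 2.73, 2.12 and 1.99 in the pNC samples, 52.22, 27.14 and 36.85 in the E14.5 corneas and 121.21, 155.53 and 145.92 in the E16.5 corneas. No sample of a later stage was as low as any of an earlier stage. Thbs2 was 16.8-fold higher at E14.5 than at E10.5 (log2 fold change 4.07, SE 0.25, adjusted p = 5.46e-07) and 68.4-fold higher at E16.5 (6.10, SE 0.27, adjusted p = 4.94e-08). After E14.5 it rose by a further 2.03 (SE 0.22, adjusted p = 3.51e-04), and this was a smaller change on the log2 scale than the change up to E14.5 (difference -2.04, SE 0.36, adjusted p = 0.00317).

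Thbs4 (chr13:92751586-92794818), a pentameric thrombospondin known from tendon and muscle, rose late. In pNC it was at 1.52, 1.27 and 1.27 FPKM. At E14.5 it was at 16.65, 1.09 and 3.38, so that replicate 1 was far above the other samples and replicate 2 below all pNC samples. At E16.5 it was at 80.60, 95.02 and 94.51, above all samples of the other stages. The rise from E14.5 to E16.5 was 3.85 on the log2 scale (SE 0.64, adjusted p = 0.00165) and that from E10.5 to E16.5 was 6.20 (SE 0.76, adjusted p = 2.91e-05), or 73.6-fold. The call from E10.5 to E14.5 (2.36, SE 0.77, adjusted p = 0.0229) rested on E14.5 replicate 1: without it the log2 fold change was 0.73 and the call was lost, as it was with both limma fits (1.21 and 1.504) and without any of the 3 pNC samples in turn, where the log2 fold change stayed at 2.30 to 2.45 (adjusted p over the alternatives from 0.00123 to 0.113). Without that sample, the log2 fold change from E14.5 to E16.5 was 5.48, and the change after E14.5 minus that before it was called above 0, which it was not with all samples (difference 1.49, SE 1.21, adjusted p = 0.446).

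The make-up of the thrombospondin transcripts was recast over the 3 stages. Of the summed FPKM of Thbs1 to Thbs4, Thbs1 held 50.4% ± 6.4, 38.8% ± 11.9 and 12.6% ± 0.8 in stage order (SD, n = 3). Thbs2 held 4.82% ± 0.17, 41.9% ± 8.3 and 50.5% ± 1.2, and Thbs4 2.88% ± 0.11, 7.08% ± 7.89 and 32.3% ± 0.6. Thbs3, a pentameric relative that is not among the 10 genes, held 41.9% ± 6.4 in pNC and 4.62% ± 0.40 at E16.5, while its own mean level was 19.5, 10.8 and 13.0 FPKM at the 3 stages. The sum of the 4 genes went from 47.2 ± 6.4 to 90.9 ± 11.8 and 279 ± 30 FPKM. Thbs4 stood at 0.598 ± 0.041 of the FPKM of Thbs2 in pNC and at 0.641 ± 0.028 at E16.5, but at 0.319, 0.0402 and 0.0917 in the E14.5 samples.

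**Figure D3:**
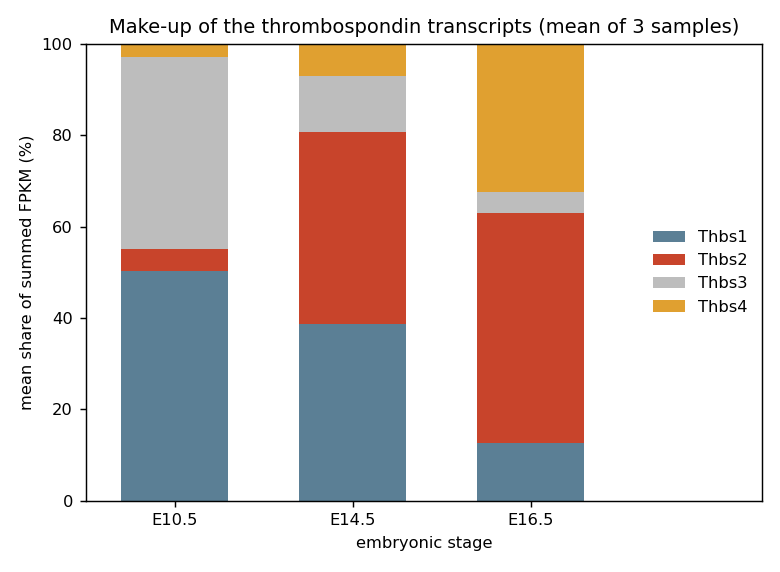
Mean share (y axis, percent) of the summed FPKM of Thbs1, Thbs2, Thbs3 and Thbs4 held by each gene, by embryonic stage (x axis), over 3 samples a stage. Thbs1 and Thbs3 make up most of the pNC bar (50.4% and 41.9%), and Thbs2 and Thbs4 most of the E16.5 bar (50.5% and 32.3%).

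The bases upstream of Thbs2 and Thbs4, which had the largest rises, and of Vtn, which was lost, are printed to set genes with opposite courses side by side. Each run holds the 250 bases before the RefSeq start of the gene (GRCm38.p6), 5′ to 3′ on its strand: chr17:14694263-14694512 for Thbs2 and chr13:92794819-92795068 for Thbs4, both on the reverse strand, and chr11:78498870-78499119 for Vtn on the forward strand. Capitals mark the motifs searched on both strands, namely the TATA box TATAAA, the GC box GGGCGG, the CCAAT box and the AP-1 motif TGANTCA. In Vtn, matches of the TATA box on opposite strands overlap, so the capitals there span both.
Thbs2 upstream: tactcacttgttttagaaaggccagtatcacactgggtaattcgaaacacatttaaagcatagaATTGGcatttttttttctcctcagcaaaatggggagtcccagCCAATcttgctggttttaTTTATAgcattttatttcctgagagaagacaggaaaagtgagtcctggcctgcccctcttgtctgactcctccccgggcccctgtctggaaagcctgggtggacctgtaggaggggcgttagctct
Thbs4 upstream: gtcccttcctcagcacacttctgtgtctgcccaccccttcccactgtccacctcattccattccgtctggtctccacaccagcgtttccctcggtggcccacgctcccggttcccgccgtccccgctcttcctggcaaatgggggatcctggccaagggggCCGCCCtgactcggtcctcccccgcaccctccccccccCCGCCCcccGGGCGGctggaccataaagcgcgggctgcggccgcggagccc
Vtn upstream: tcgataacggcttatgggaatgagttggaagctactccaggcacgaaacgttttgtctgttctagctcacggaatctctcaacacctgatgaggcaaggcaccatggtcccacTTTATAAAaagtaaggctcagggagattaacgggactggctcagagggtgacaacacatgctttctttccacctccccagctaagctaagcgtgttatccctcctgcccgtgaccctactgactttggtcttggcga

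Thbs2 and Thbs4 shared none of the 4 motifs in this window. Thbs2 held 1 TATA box match and 2 CCAAT matches at a GC content of 46.8%, whereas Thbs4 held 3 GC box matches at a GC content of 70.8%, and Vtn held 2 overlapping TATA box matches, on opposite strands, at 50.4%. Of all 32851 promoter windows of the same length, 12.4% hold the TATA box, 32.7% the GC box, 33.8% the CCAAT box and 6.75% the AP-1 motif, and their median GC content is 52.4%. Windows were found for 8 of the 10 genes.

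The fasciclin-domain genes ran in opposite directions up to E14.5. Postn encodes periostin, which binds integrins and collagen and takes part in collagen cross-linking. Its FPKM was 14.90, 19.56 and 15.77 in pNC, 65.42, 70.92 and 68.77 at E14.5 and 46.37, 52.04 and 49.09 at E16.5. The 3 stages did not overlap, with E14.5 the highest. Postn was 4.11-fold higher at E14.5 than in pNC (log2 fold change 2.04, SE 0.11, adjusted p = 2.48e-07) and 3.31-fold higher at E16.5 (1.72, SE 0.11, adjusted p = 3.18e-07). From E14.5 to E16.5 its log2 fold change was -0.31 (SE 0.10, adjusted p = 0.0369), under the fold minimum, and the change after E14.5 minus that before it was called below 0 (difference -2.35, SE 0.17, adjusted p = 1.15e-05).

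Tgfbi (chr13:56609586-56639359), which encodes a TGF-β-induced protein that binds integrins and collagens, dipped at E14.5. It had FPKM of 61.67, 53.57 and 45.92 in pNC, 7.35, 4.95 and 4.84 at E14.5 and 31.93, 24.11 and 25.30 at E16.5. Every E14.5 sample was below every other sample, and every E16.5 sample below every pNC sample. Tgfbi fell by 3.25 on the log2 scale up to E14.5 (SE 0.18, adjusted p = 3.06e-07) and rose by 2.41 after it (SE 0.18, adjusted p = 1.38e-04). It ended at a log2 fold change of -0.84 against pNC (SE 0.16, adjusted p = 6.40e-04), under the fold minimum. Relative to Postn, its FPKM was 3.26 ± 0.76, 0.0842 ± 0.0244 and 0.556 ± 0.118 at the 3 stages (SD, n = 3).

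The log2 change after E14.5 minus that before it was also tested, with its sign. This difference was called above 0 for 1 member, Tgfbi (5.66, SE 0.33, adjusted p = 2.78e-06), whose fall turned into a rise, and below 0 for 2, Postn and Thbs2. Over all genes tested, 3.34% were called above 0 and 8.81% below 0.

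RSEM assigns each gene a length averaged over its transcripts in proportion to their estimated abundance. Among the members, this length could vary only for Fn1 and Postn. Every other member was represented by 1 transcript, which fixed its length in advance. For Postn it was 3173.32, 3179.76 and 3182.03 bases in the pNC samples, 3227.16, 3227.13 and 3226.98 at E14.5, and 3227.21, 3227.29 and 3227.17 at E16.5. The pNC samples were thus shorter by 48.7 bases on average than those at E14.5, and the corneal samples lay within a single base of each other. For Fn1 it was 8420.58, 8396.05 and 8324.34 bases in pNC, 8359.41, 8397.61 and 8393.47 at E14.5, and 8223.64, 8280.38 and 8269.07 at E16.5. The E16.5 samples were all shorter than those of the other stages, with a mean difference of -126 bases from E14.5. In a two-sided exact permutation test of 3 against 3 samples, each of these differences reached p = 0.1, the smallest that this design allows, and Fn1 between E10.5 and E14.5 gave p = 0.9. The alternative exons printed above differ among the transcripts averaged, but the share of each transcript was not analysed here. Fn1 transcripts also differ beyond these exons. Coding lengths are 7158, 7083 and 6798 bases with EDA and no EDB, and 6888, 6813 and 6528 bases with neither. This comparison was added after the values had been seen.

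**Figure D4:**
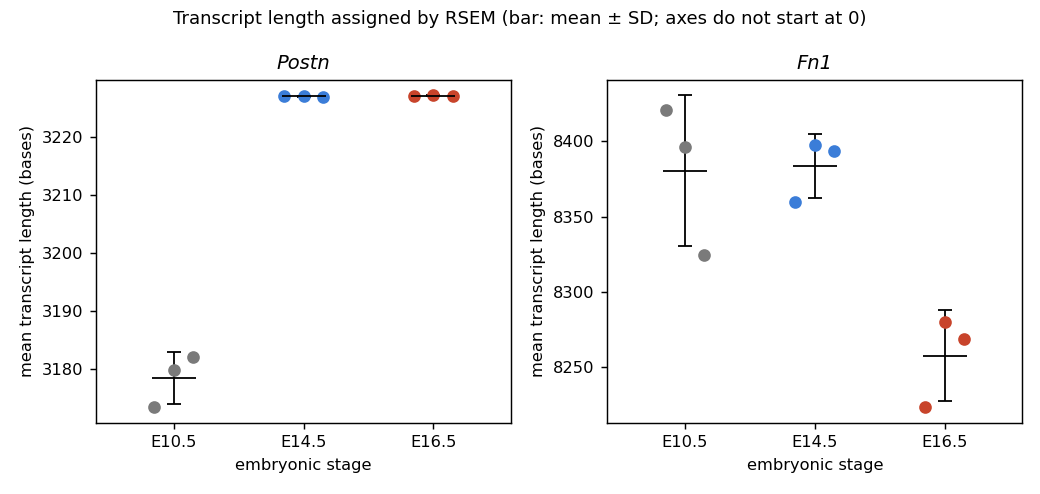
Mean transcript length in bases that RSEM assigned (y axis, not starting at 0) to Postn and Fn1 in each of 3 samples a stage (x axis); black bars are the mean ± SD. The Postn length is 3178 bases on average in pNC and 3227 at both corneal stages, and the Fn1 length is lowest in the E16.5 corneas (mean 8258).

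To set the members beside the molecules that act with them, 58 partner genes were followed in 3 lists: receptors, relatives, and genes of matrix assembly and turnover. Of these, 55 could be tested. From E10.5 to E14.5, 19 were called higher and 11 lower, from E10.5 to E16.5, 23 higher and 12 lower, and from E14.5 to E16.5, 0 higher and 4 lower. Over all genes tested the shares were 13.6% and 7.97%, 19.4% and 15.4%, and 6.26% and 5.47%, and these are the background of the counts of each list below. At an unadjusted p under 0.05, 16 were higher in edgeR from E14.5 to E16.5, none of them by the fold minimum, and DESeq2 and both limma fits called 0 as well. The 4 that fell after E14.5 were Itga9, Spp1, Wisp1 and Spock3, named after their values were seen.

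Of 21 receptor genes, 5 rose and 5 fell from E10.5 to E14.5, and 9 rose and 6 fell from E10.5 to E16.5, where 13.6% and 7.97%, then 19.4% and 15.4%, of all genes did. The fibronectin receptor is formed by the integrin chains α5 (Itga5) and β1 (Itgb1). Itga5 was at 23.8, 22.1 and 16.1 FPKM and Itgb1 at 91.1, 127 and 121 FPKM at the 3 stages, and neither was called in any comparison. Itgav, the αv chain of the vitronectin receptors, was at 8.84, 17.5 and 19.1 FPKM and rose by 1.26 on the log2 scale from E10.5 to E16.5 (SE 0.08, adjusted p = 4.17e-07), while Vtn itself was not listed in the corneas. Itga9, whose product binds tenascin-C, fell from 16.9 to 5.64 and 1.54 FPKM, and Itga8, whose product binds fibronectin and nephronectin, from 5.72 to 1.203 and 0.580 FPKM. The log2 fold changes from E10.5 to E16.5 were -3.39 (SE 0.45) for Itga9 and -3.14 (SE 0.37) for Itga8.

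Cd47 rose from 4.78 to 9.48 FPKM between E10.5 and E16.5 (log2 fold change 1.14, SE 0.13, adjusted p = 2.28e-05), and Cd36 rose 3.29-fold (1.72, SE 0.41, adjusted p = 0.00307) at low levels of 0.730, 1.55 and 2.14 FPKM. At E14.5, Cd36 was called higher than at E10.5 as well (1.08, SE 0.42, adjusted p = 0.0457), though its samples overlapped. Cacna2d1, which encodes a calcium channel subunit that binds thrombospondins, fell from 5.34 to 0.997 FPKM (-2.27, SE 0.14). The syndecans Sdc2 and Sdc4, heparan sulfate carriers that act as co-receptors for fibronectin, rose 4.42-fold and 5.71-fold by E16.5, and the laminin-binding integrin chain Itga3 rose 5.31-fold.

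Among the relatives, 10 of 18 genes tested rose and 2 fell up to E14.5, and 7 rose and 2 fell up to E16.5, so that the falls were near the 7.97% of all genes at E14.5 and under the 15.4% at E16.5. Within the SPARC family, Smoc2 rose from 2.75 to 75.6 and 108 FPKM and Spock2 from 5.47 to 77.5 and 53.5, whereas Smoc1 fell from 12.5 to 0.683 and 0.650 FPKM. Nov, also called Ccn3, a secreted regulator of adhesion, rose from 0.860 to 14.8 and 12.4 FPKM. The change after E14.5 minus that before it was called above 0 for 2 of the 18 relatives, Smoc1 and Thbs3, which had negative log2 changes up to E14.5, and below 0 for 9, beside 3.34% and 8.81% of all genes.

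Of 16 genes of assembly and turnover, 4 rose and 4 fell up to E14.5, and 7 rose and 4 fell up to E16.5, beside 13.6% and 7.97%, then 19.4% and 15.4%, of all genes. Lox and Loxl1, which encode enzymes that cross-link collagen and elastin, rose from 22.5 to 112 and from 8.15 to 41.9 FPKM by E16.5, and the gelatinase gene Mmp2 from 61.7 to 159 FPKM. The protease gene Adamts1 fell by 1.44 on the log2 scale (SE 0.19) and Plat, which encodes tissue plasminogen activator, by 1.39 (SE 0.17) up to E16.5. Timp1 and Timp3, genes of metalloproteinase inhibitors, fell by 1.42 (SE 0.32) and 1.32 (SE 0.13) up to E14.5.

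**Figure D5:**
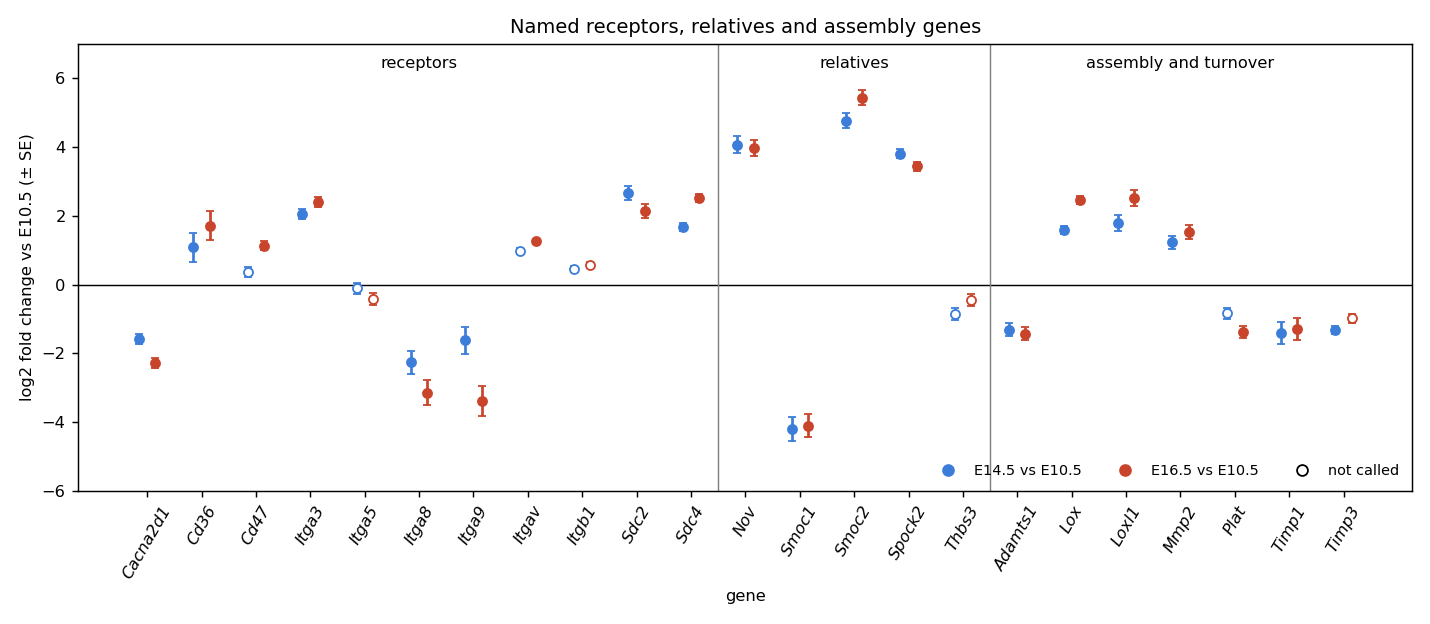
Log2 fold change against E10.5 (y axis, ± SE) at E14.5 and E16.5 for the named receptors, relatives and genes of assembly and turnover (x axis); filled symbols passed both thresholds and open symbols did not. Of the genes shown, Smoc2 has the largest rise (5.44 at E16.5) and Smoc1 the largest fall (-4.20 at E14.5).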

How the data were processed

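RNA-Seq of 9 samples at 3 stages was analyzed. As described in the methods, the authors filtered the reads, aligned them with HISAT to the GRCm38 build and with Bowtie 2 to reference gene sequences, and quantified genes with RSEM (versions not given in the sources used here). The deposited expected counts are estimates that the authors did not normalize, and the deposited FPKM values are scaled by the authors to transcript length and mapped fragments. Genes that a table does not list were set to 0 there. Whether counting used strand is not given in the sources used here, and 3 members overlap non-coding genes or a pseudogene in RefSeq (Tnc, Tnxb and Postn), while GENCODE also places genes opposite to Fn1 and Thbs1.

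Expected counts were rounded, filtered with filterByExpr by stage, scaled with TMM and tested with edgeR 4.0.16 (R 4.3.3) in a single quasi-likelihood fit of 9 samples. On simulated counts of 14771 genes for E14.5 against E10.5, 98% of 100 genes changed by a log2 of 2 and 100% of 100 changed by 3 were recovered, with 0 false calls. The changed genes were few, excluded low counts and were balanced between rises and falls, and both corneal stages were shifted alike. No simulated sample was made to stand apart as E14.5 replicate 1 does, so these rates need not hold for the data. Alternatives were DESeq2 1.42.0, limma 3.58.1 on log2(FPKM + 1) and log2(FPKM + 0.1), library totals, no filter, no fold minimum, the NOISeq criterion of the study (probability of at least 0.8), a replicate block, only the stages compared, and leaving out each sample. Permutation tests used scipy 1.17.1. At these depths the precision of a mean is set by the spread of 3 samples for all but rare transcripts.

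The members and lists were chosen with earlier results of these data known. Named were all 10 members, Itga5, Itgb1, Itgav, Itga8, Itga9, Cd36, Cd47 and Thbs3, and, per list and comparison with E10.5, up to 3 rises and 3 falls that were largest among called genes with a mean of at least 5 FPKM. Pattern neighbors were the 2 genes with the highest Pearson r of log2(FPKM + 1) among 10942 genes at that level, of which a single neighbor is not reported here.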

Additional observations from a re-analysis of the deposited data

How the results depend on the processing

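No log2 fold change between stages of Fn1, Tnc, Thbs1, Thbs2, Thbs4, Postn, Tgfbi and Sparc changed its direction under an alternative that gave a value. Members called lower from E14.5 to E16.5 (1) numbered 0 with limma on log2(FPKM + 1) and by the NOISeq criterion and 2 with no fold minimum, and 0 to 1 when a sample was left out (0 without E14.5 replicate 3). Members for which the change after E14.5 minus that before it was called above 0 (1) numbered 2 with DESeq2 and with both limma fits, which added Vtn, through its fall up to E14.5, and 1 to 2 when a sample was left out (2 without E14.5 replicate 1, which added Thbs4). With no fold minimum, partner genes called higher numbered 29 up to E14.5 and 12 from E14.5 to E16.5, and those called lower from E14.5 to E16.5 numbered 10, or 7 with library totals. Leaving out a sample gave 0 to 2 partner genes higher from E14.5 to E16.5 (1 without E14.5 replicate 1, 2 without E16.5 replicate 1).

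With the replicate block, members called numbered 4, 5 and 5 higher and 2, 2 and 1 lower in the 3 comparisons, as without it, and partner genes called higher up to E14.5 numbered 20 against 19. Replicate numbers did not pair the samples: deviations from the stage means correlated at -0.0341 on average over 9 pairs with the same number and at 0.0178 over 18 pairs with different numbers. DESeq2 gave no adjusted p for Thbs4 in any comparison, so that gene has no value there. Dividing FPKM by TMM factors moved the E16.5 means of Fn1, Thbs1 and Postn to 330, 37.5 and 52.9. Of the log2 fold changes under alternatives, 392 kept their side of the thresholds, 12 dropped out and 1 passed, and those of Fn1, Tnc and Thbs4 that moved are given above; the cause was not tested. Depth limits Tnxb, at 5 counts or fewer in every sample, and the bound on Vtn.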

Other observations

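The genes whose levels ran closest to each member over the 9 samples were as follows, by Pearson r of log2(FPKM + 1). The 9 samples fall into 3 stages, so r mostly follows the stage means, and it is given as a description. Thbs2 ran with Col5a2 (r = 0.9996), a fibrillar collagen gene at 30.5, 235 and 698 FPKM at the 3 stages, and with Pgap4 (r = 0.999). Sparc ran with Tshz2 (r = 0.998) and with Crtap (r = 0.997), which encodes a partner of collagen prolyl hydroxylation at 26.4, 64.6 and 120 FPKM. Thbs4 ran with Kazald1 (r = 0.996) and with Aqp3 (r = 0.994), a water channel gene of epithelia at 1.15, 11.8 and 156 FPKM. Postn ran with Wnt2 (r = 0.995), at 0.790, 39.0 and 19.7 FPKM, and with Prkg1 (r = 0.995).

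Tgfbi ran with Tle5 (r = 0.980) and with the metalloproteinase gene Adamts9 (r = 0.971), which also dipped at E14.5, at 6.93, 1.51 and 4.31 FPKM. Vtn ran with Pou4f1 (r = 0.999) and Tlx3 (r = 0.999), transcription factor genes of sensory neurons, at 5.53 and 6.20 FPKM in pNC and at 0.05 FPKM or less in the corneas. Fn1 ran with Tmem120b (r = 0.993) and Hdac5 (r = 0.991), Tnc with Stk40 (r = 0.988) and Lrfn1 (r = 0.985), and Thbs1 with Snx30 (r = 0.956).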
